A study of Mus musculus with 6 samples.

Results

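Potassium channel genes were taken as all genes whose symbol starts with Kcn, and 84 of them were found among the 18193 genes that the array's annotation names. They are represented by 167 probe sets, each of which is annotated to 1 gene only. The annotation gives 1 probe set to 38 of the genes and several to 46, and the probe set of highest mean stood for each gene. Of 98 Kcn symbols in the RefSeq gene table, 14 are not named here, so families are counted below only as far as named. RNA came from the olfactory epithelium, the sheet of nasal tissue that holds the odour-sensing neurons, and was hybridised to Affymetrix mouse 430 2.0 arrays. There were 3 arrays from mice homozygous for the OMP-GFP allele and 3 from heterozygous mice, so every array carries that allele and none is wild type. As background, in OMP-GFP mice green fluorescent protein takes the place of olfactory marker protein, a cytosolic protein of mature olfactory neurons. Homozygous mice therefore lack the marker protein, while heterozygous mice keep an intact copy. The number of GFP copies and the loss of the marker protein cannot be told apart in this design. The labels used here give no age, sex or strain, and do not say whether an RNA came from 1 mouse or several, so p-values measure only the spread between these samples. The study asked how olfactory marker protein bears on gene expression here.

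Potassium channels let potassium leave or enter cells along its gradient and so set the resting potential, end action potentials and recycle potassium across epithelia. The pore-forming proteins fall into voltage-gated, inward rectifier, tandem-pore and calcium- or sodium-activated families, and auxiliary subunits change how the pore opens or where it goes. In the olfactory epithelium, neurons use voltage-gated and calcium-activated channels to shape the spikes evoked by odours. The supporting sustentacular cells and the gland cells are epithelial cells with a large resting potassium conductance.

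Olfactory neuron genes are classically bound near their starts by Ebf (Olf-1) factors, whose site is the palindrome TCCCNNGGGA with the core CCCNNGGG. The 250 bases before the annotated start were searched for both, each reading the same on either strand, in RefSeq promoters of GRCm38.p6, where 64 of the 84 genes were matched by symbol and some have more than 1 start. The core was present in 6 of 24 matched genes that passed the filter on low values described below and in 7 of 40 that did not, which is 25% and 17.5%. It was present in 13.4% of the 27025 genes of the whole table, where the median GC content was 52.4% against 58.4% and 58.8% in these 2 sets, and the part of base composition was not tested. A gene counted when the core lay before any of its starts. Counted by start, the core was present in 17.6% of 34 and 12.7% of 55 windows, beside 11.8% of 32851. The longer palindrome was present in 0 of the 64 genes and in 0.914% of all genes. The match farthest upstream in each of the 6 genes that passed the filter is printed with its flanks, 5′ to 3′ on the gene's strand, to show the core in its setting. The windows they come from had a GC content of 59.2% to 83.6%. Capitals mark the core, and a match is only a match of letters.
Kcnh8 (chr17:52602506-52602545, plus strand): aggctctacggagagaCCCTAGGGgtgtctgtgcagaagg
Kcnc4 (chr3:107459058-107459097, minus strand): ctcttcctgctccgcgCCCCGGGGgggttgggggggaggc
Kcnmb4 (chr10:116473741-116473773, minus strand): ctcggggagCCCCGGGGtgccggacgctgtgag
Kcnma1 (chr14:24004411-24004450, minus strand): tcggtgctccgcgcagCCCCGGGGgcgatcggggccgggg
Kcnmb4os2 (chr10:116473102-116473141, plus strand): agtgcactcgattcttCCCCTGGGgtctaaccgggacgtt
Kcnip4 (chr5:48599683-48599713, minus strand): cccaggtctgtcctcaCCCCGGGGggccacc
Kcnh8 and Kcnmb4 held 1 match each and Kcnma1 held 4, some of them overlapping within 1 run of C and G.

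The deposited values are MAS5 signals, a brightness per probe set on a linear scale, with array medians between 147.9 and 163.7. The tissue was checked on its markers. The neuronal channel subunit Cnga2 read between 5968 and 8056, the G protein gene Gng13 between 9890 and 13158 and the sustentacular enzyme gene Cyp2g1 between 17796 and 18562. Not all were bright, as the channel subunit gene Cngb1 of the same neuron list read 42.1 to 79.7. Of the bone and cartilage list, Ibsp read 12335 to 13714 and Col1a1 22949 to 24175. Col2a1 and Acan of that list had means of 345.1 and 249.7. Which cells the bright potassium channel genes come from was not tested. Some arrays stood apart. Against its mean over the arrays, the list of 5 myelin and ensheathing glia markers lay 0.99 higher on the log2 scale in the library labelled heterozygous 1, with a summed signal of 19017 against 9070 to 9702 elsewhere. Mbp and Pmp22 carried that mean, and the dim myelin gene Mag was also highest there, at 133.4 against 66.1 to 81.3. The ensheathing glia marker Fabp7 was instead lowest there, at 6290 against 6697 to 7219. S100b, at 425.7, was level with heterozygous 3, at 417.9. The list of 8 brain and bulb neuron markers lay 0.57 higher in heterozygous 3, with a summed signal of 5375 against 3922 to 4079 elsewhere. None of the 8 markers was at 0, but the cortical neuron gene Slc17a7 read 80.3 in heterozygous 3 and 25.4 to 45.4 on the others. This list did not move as 1 either: Rbfox3 and Cplx1 were highest in heterozygous 3, while Eomes was lowest there, at 205.2 against 310.5 to 510.0 elsewhere. The list of 7 mature olfactory neuron markers named on the array lay 0.28 lower in heterozygous 3. Its dim member Cngb1 did not, at 58.5 there against 42.1 to 79.7 elsewhere. In homozygous 1 the red cell list lay 0.94 higher and the neutrophil list 0.60 higher. The neutrophil marker Ltf was not raised there, at 5625 against 4909 to 8210 elsewhere. At probe set 1422199_at of Omp itself the library labelled heterozygous 1 read 26.3, near the 5.7, 8.8 and 31.3 of the homozygous arrays and far from 4664 and 9143 in heterozygous 2 and 3. The other Omp probe set, 1422200_at, was bright in both groups, at 7919 to 8774 in homozygous and 7968 to 8709 in heterozygous arrays. The labels do not say which of them falls within the exchanged sequence, so they do not settle the label.

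Most potassium channel genes were dim in this tissue, and a small set was bright. To compare groups, a gene had to have a mean at or above the median of all probe sets, which corresponds to a signal of about 155. Of the 84 genes 30 passed, or 35.7%, while 62.8% of all genes did. The median gene of the family stood at the 32.3 percentile of all genes, 7 were above the 75th percentile and 2 above the 90th. Signals of 7 genes stayed below 38.8 on every array, which is the 25th percentile of all values. These are 8.33% of the family, and 10.3% of all genes did so. Brightness also depends on the probes' affinity, so a position among genes is a description and no ranking of RNA amounts.

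**Figure D1:**
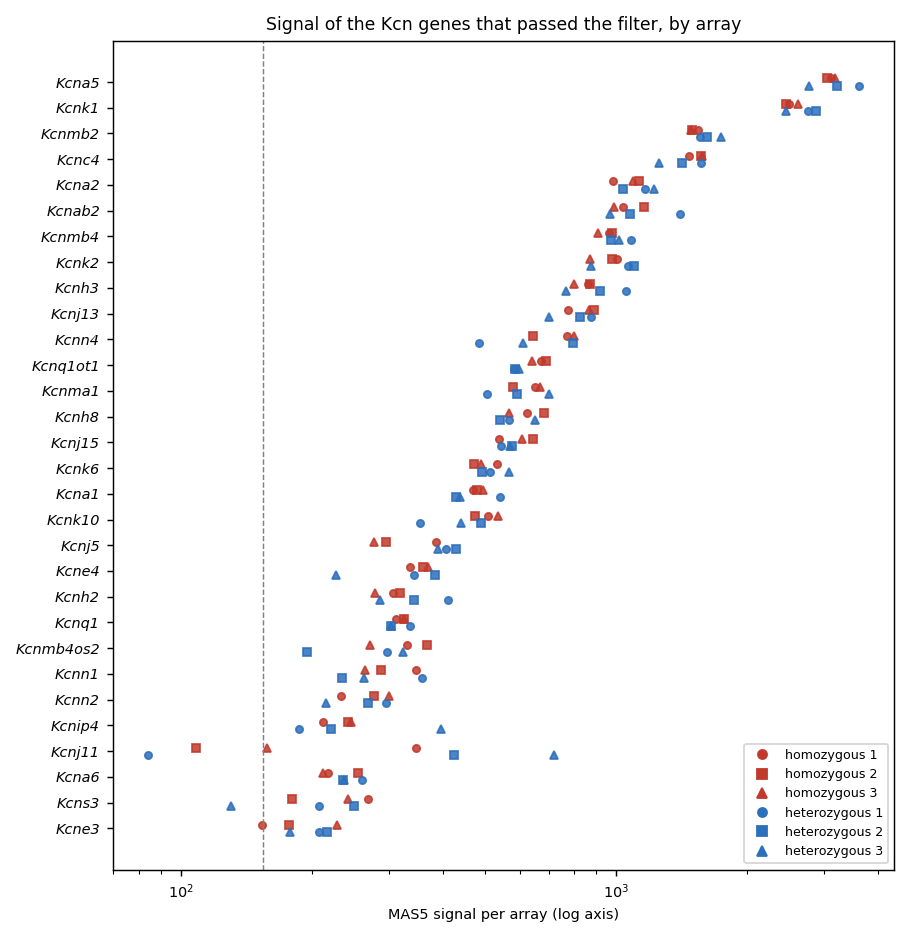
MAS5 signal (log axis) of the 30 Kcn genes that passed the filter on each of 6 arrays, red for homozygous and blue for heterozygous, with the filter's level of about 155 as a dashed line. For 21 of the 30 genes the 6 arrays lie within 1.5-fold, while Kcnj11 spans 8.57-fold.

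Among the named voltage-gated pore-forming subunits of the Shaker to Shal families, 5 of 13 passed, and 3 of them were above the 75th percentile of genes. No Shab (Kcnb) gene is among these 13. Kcna5, a delayed rectifier subunit known best from heart and smooth muscle, was the brightest gene of the whole family. It read 3106, 3045 and 3174 in homozygous 1, 2 and 3 and 3609, 3218 and 2766 in heterozygous 1, 2 and 3, and the groups overlapped. Kcnc4, which forms fast-inactivating high-threshold channels, read 1468, 1562 and 1571 in homozygous and 1564, 1414 and 1254 in heterozygous arrays. Its probe set has the suffix _s_at, which marks probes that can match more than 1 transcript, and its other probe set was 2.27-fold dimmer. Kcna2, a low-threshold axonal subunit, read 981.9 to 1131 in homozygous and 1035 to 1224 in heterozygous arrays. Its partner in many axons, Kcna1, read 468.7 to 495.0 and 428.1 to 540.0. Kcna6 was the dimmest of those that passed, at 212.0 to 254.7 and 235.2 to 261.4. The 8 that did not pass included Kcnd2 and Kcnd3, subunits of the transient A-type current. Kcns3, which is electrically silent alone and modifies Shab channels, was the only 1 of 9 silent subunits to pass, with 179.7 to 269.1 and 130.7 to 250.

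Subunits that accompany the voltage-gated channels were brightest for Kcnab2, a cytosolic partner of Shaker channels related to aldo-keto reductases. It read 1036, 1158 and 990.9 in homozygous and 1405, 1077 and 965.9 in heterozygous arrays, so the array labelled heterozygous 1 was the highest and heterozygous 3 the lowest. Of 12 such genes 4 passed. Kcne4, a small membrane protein that inhibits several voltage-gated channels, read 335.7 to 370.3 in homozygous arrays, and 344.1, 383.8 and 227.1 in heterozygous arrays. Kcnip4, a calcium-binding partner of A-type channels, read 211.9 to 245.9 in homozygous arrays and 186.9, 221.0 and 396.4 in heterozygous arrays, of which heterozygous 3 lies above all others. Kcne3, which keeps the epithelial channel of Kcnq1 open, was the dimmest gene to pass, at 154.0 to 228.7 and 177.8 to 216.9. Just outside lay Kcnip3, another calcium-binding partner, at 126.0 to 180.4 over all arrays.

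In the ether-a-go-go family 3 of 6 passed, and in the KCNQ family 1 of the 3 named, which are Kcnq1, Kcnq3 and Kcnq5. Kcnh3 and Kcnh8 belong to the Elk branch, which opens at subthreshold voltages. Kcnh3 read 799.2 to 869.2 in homozygous and 766.6 to 1053 in heterozygous arrays. Its probe set is of the kind that can cross-hybridise, with the suffix _x_at. Kcnh8 read 567.6 to 683.4 and 542.1 to 649.2. Kcnh2, the delayed rectifier that repolarises the heart, read 279.8 to 318.2 and 286.6 to 411.4. Kcnq1, a channel of heart and secretory epithelia, was the steadiest gene past the filter, with 6 values between 303.3 and 335.6, a 1.11-fold span.

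Inward rectifiers hold the resting potential near the potassium equilibrium, and 4 of 15 passed. Kcnj13, typical of transporting epithelia, was the brightest, at 775.2 to 890.0 in homozygous and 699.9 to 877.4 in heterozygous arrays. Kcnj15, also found in epithelia, read 539.3 to 643.2 and 545.1 to 575.9. Kcnj5, a subunit of the channels that G proteins open, read 386.6, 295.9 and 278.4 in homozygous 1, 2 and 3 and 405.5, 428.2 and 389.4 in heterozygous 1, 2 and 3. All 3 homozygous values lay below the lowest heterozygous value, although 386.6 in homozygous 1 is close to 389.4 in heterozygous 3. Kcnj11, the pore of ATP-sensitive channels, was the most variable gene and is described with the arrays that stand apart. Kcnj16, an epithelial partner subunit, lay just outside the filter at 108.6 to 168.5.

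Tandem-pore channels carry leak currents, and 4 of 12 passed. Kcnk1 was the second brightest gene of the family. It read 2494, 2461 and 2616 in homozygous and 2759, 2876 and 2457 in heterozygous arrays, so the groups overlapped only through heterozygous 3. The mechanosensitive channel gene Kcnk2 read 872.5 to 1006 and 876.8 to 1096. Its relative Kcnk10 read 474.2 to 535.3 in homozygous arrays and 354.6, 489.5 and 441.2 in heterozygous arrays. Kcnk6 read 472.5 to 531.6 and 491.5 to 566.4.

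Among the pore genes of calcium-activated channels and their sodium-activated and other Slo relatives 4 of 8 passed, as did 2 of 3 accessory genes of the BK channel. Those 4 are all calcium-activated, while Kcnn3, Kcnt1, Kcnt2 and Kcnu1 did not pass. Kcnma1 encodes the pore of the large-conductance BK channel, and read 578.7 to 669.9 in homozygous and 505.7 to 699.7 in heterozygous arrays. Kcnmb2, which adds fast inactivation, read 1540, 1493 and 1484 in homozygous and 1560, 1618 and 1744 in heterozygous arrays, with no overlap. Kcnmb4, the neuronal accessory subunit, read 964.0, 978.2 and 906.9 against 1082, 970.4 and 1015. Kcnmb1, the smooth muscle form, did not pass, with a mean of 42.1. Kcnn4, the intermediate-conductance channel of secretory epithelia and blood cells, read 643.7 to 799.8 in homozygous arrays and 485.2, 797.1 and 609.8 in heterozygous arrays. The 5 neutrophil markers differed by a mean of 0.41 between the groups, and by 0.07 to 0.35 each without homozygous 1. The list lay at -0.13 in homozygous 2, and the part of blood cells in Kcnn4 was not tested. The small-conductance channel genes Kcnn1 and Kcnn2 had means of 292.4 and 265.2.

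Of 3 genes with such symbols that make no channel protein, 2 passed. Kcnq1ot1 is the long imprinted RNA that runs antisense to Kcnq1. It read 670.6, 691.2 and 641.1 in homozygous and 581.7, 585.7 and 598.2 in heterozygous arrays, and the groups did not overlap. Kcnmb4os2, annotated opposite to Kcnmb4, read 272.1 to 368.3 and 194.5 to 324.7.

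Homozygous and heterozygous arrays were then compared with limma over all 11426 genes that passed. No potassium channel gene passed an adjusted p of 0.05, nor did any other gene (0% called), and the lowest adjusted p among the 30 was 0.951. A plain pooled-variance test also left 0 of the 30 after adjustment. At an unadjusted p under 0.05, 0 of the 30 were higher in homozygous arrays, beside 2.60% of all genes, and 1 of 30, Kcnj5, was lower, beside 2.56%. The groups did not overlap for 1 gene higher in homozygous arrays, Kcnq1ot1, beside 4.82% of all genes. They did not overlap for 2 lower genes, Kcnj5 and Kcnmb2, beside 5.51%. With 30 genes, these counts lie near the shares of all genes. Differences were evenly split, with 15 above 0 and 15 below, and their median was -0.0025 beside -0.00041 for all genes. The SE of these differences had a median of 0.114 (log2). Of all genes at an unadjusted p under 0.05, 50.3% were higher in homozygous arrays. That share was 18.4% after a shift of every array to 1 median, which moved the median of all genes to -0.04.

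Kcnj5 had the lowest p. Its difference was -0.33 ± 0.13 (homozygous minus heterozygous, log2 scale, SE), with a 95% interval from -0.61 to -0.05, an unadjusted p of 0.0265 and a limma adjusted p of 0.951. Its other probe set, 1421762_at, was below the filter and differed by -0.05, and the mean of both gave -0.19. Kcnq1ot1 had the lowest p among genes higher in homozygous arrays, with a difference of 0.17 ± 0.08 (SE) and a limma adjusted p of 0.951. It lay between 0.15 and 0.20 with any single array left out, and its other probe sets past the filter differed by 0.13 and 0.35. Its 3 probe sets below the filter differed by -0.20, -0.07 and 0.18, and the mean of all its probe sets gave 0.09. Kcnq1, on the other strand, differed by 0.03. The BK accessory genes were both lower in homozygous arrays, Kcnmb2 by -0.12 ± 0.08 and Kcnmb4 by -0.10 ± 0.08 (SE), while Kcnmb4os2 differed by 0.24 ± 0.17. Kcnmb2 differed by -0.08 without heterozygous 3 and by -0.04 with the mean of its probe sets. Kcnmb4 differed by -0.06 without the library labelled heterozygous 1. Without heterozygous 2, the array where Kcnmb4os2 read 194.5, its difference was 0.04.

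Other genes with the lowest p in each direction also moved with single arrays. Kcnk10 differed by 0.23 ± 0.12 (SE) and Kcnn4 by 0.24 ± 0.15. Without the library labelled heterozygous 1, where both had their lowest value, they differed by 0.11 and 0.07. Kcne4 and Kcns3, higher by 0.17 and 0.22, differed by -0.03 and -0.0023 without heterozygous 3, where both were lowest. Kcnc4 differed by 0.12 and by 0.04 without heterozygous 3, and Kcnh8 by 0.09 and by 0.02 without homozygous 2. Among genes lower in homozygous arrays, Kcnh2 differed by -0.17 and, without the library labelled heterozygous 1, by -0.05. Kcnk1 differed by -0.09 and by -0.04 without heterozygous 2, and Kcna2 by -0.09 and by -0.03 without homozygous 1. All of these genes had a limma adjusted p of 0.951 or more.

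**Figure D2:**
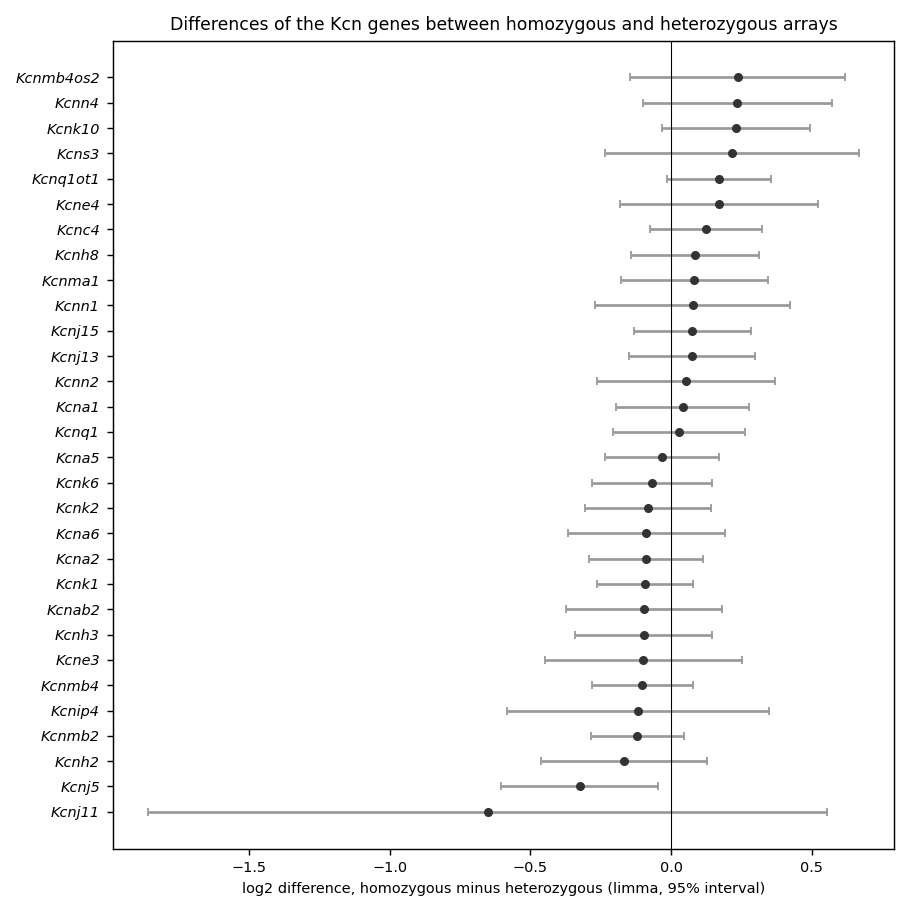
Log2 difference (homozygous minus heterozygous) of the 30 Kcn genes that passed the filter, with 95% limma intervals as bars. The interval of Kcnj5 alone leaves out 0, before adjustment over all genes, and that of Kcnj11, from -1.86 to 0.56, is the widest.

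The intervals show what size of change these arrays could miss. For the brightest genes they were narrow, from -0.23 to 0.17 for Kcna5 and from -0.26 to 0.08 for Kcnk1. For Kcnn2, among the dimmest, the interval ran from -0.26 to 0.37, and for Kcns3 from -0.24 to 0.67. A p above the threshold does not show that the groups are alike within these bounds.

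Several probe sets of a gene passed for 16 of the genes, and their differences had 1 sign in 10 of these. Kcnn1 gave 0.08 at both of its probe sets, Kcnk1 gave -0.09 and -0.08, and Kcnab2 gave -0.10 and -0.07. Kcnh3 disagreed most. It differed by -0.10 at the cross-hybridising probe set, by -0.10 at 1459107_at and by 0.50 at 1421619_at, which was 3.14-fold dimmer. At 1421619_at the signals were 348.6, 372.6 and 274.3 in homozygous and 155.5, 301.9 and 226.2 in heterozygous arrays, with overlap. Kcnk10 differed by 0.23 at its brighter and by -0.11 at its other probe set. Kcnj15 differed by 0.07 at the probe set that stands for it, and by 0.31 at 1443054_at, where 243.3, 275.8 and 268.4 in homozygous arrays all lay above 173.4, 204.8 and 235.9 in heterozygous arrays. The probe sets of Kcnmb2, which were within 1.03-fold in mean signal, differed by -0.12 and 0.03, so the separation of its groups was seen at only 1 of them.

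**Figure D3:**
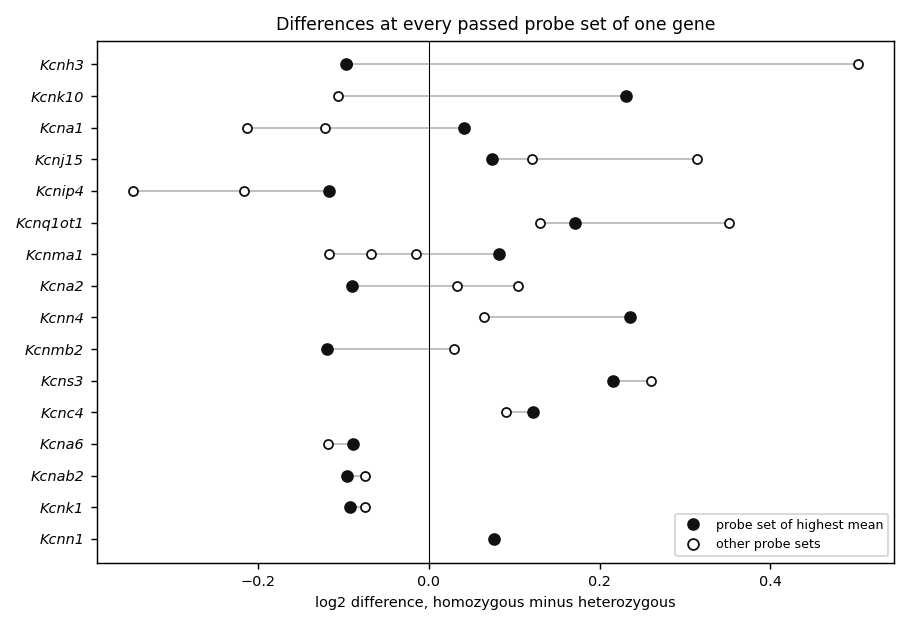
Log2 difference (homozygous minus heterozygous) at every probe set past the filter for the 16 Kcn genes with more than 1, filled for the brightest. Kcnh3 spans from -0.10 to 0.50, while both probe sets of Kcnn1 lie at 0.08.

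Kcnj11 was the 1 gene past the filter whose arrays of a group spanned more than 1 on the log2 scale. It read 347.7, 108.2 and 157.6 in homozygous 1, 2 and 3. The heterozygous arrays gave 84.2 in library 1 by its label, 423.5 in library 2 and 721.3 in library 3. The highest and the lowest value of all thus lay within the heterozygous group. The difference was -0.65 ± 0.55 (SE), with a limma adjusted p of 0.951. Leaving out heterozygous 3 gave -0.09. Leaving out the library labelled heterozygous 1 gave -1.41 and a limma adjusted p of 0.346, the lowest of any potassium channel gene under the 21 alternatives run. The heterozygous arrays had the same order at Omp probe set 1422199_at. Homozygous 1 had an Omp signal of 5.7 there and read 347.7 for Kcnj11, and a link between the 2 genes was not tested. Kcnj11 lies on chromosome 7, as Omp does, with 281 protein-coding genes between them. Its other probe set, 1450515_at, read 31.7 to 72.0 and had its highest value in homozygous 2. Of its partners, named here after their values were seen, Abcc9, a sulfonylurea receptor that pairs with this pore, read 245.0 to 354.5 over all arrays, and the other receptor gene, Abcc8, 72.8 to 135.2.

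**Figure D4:**
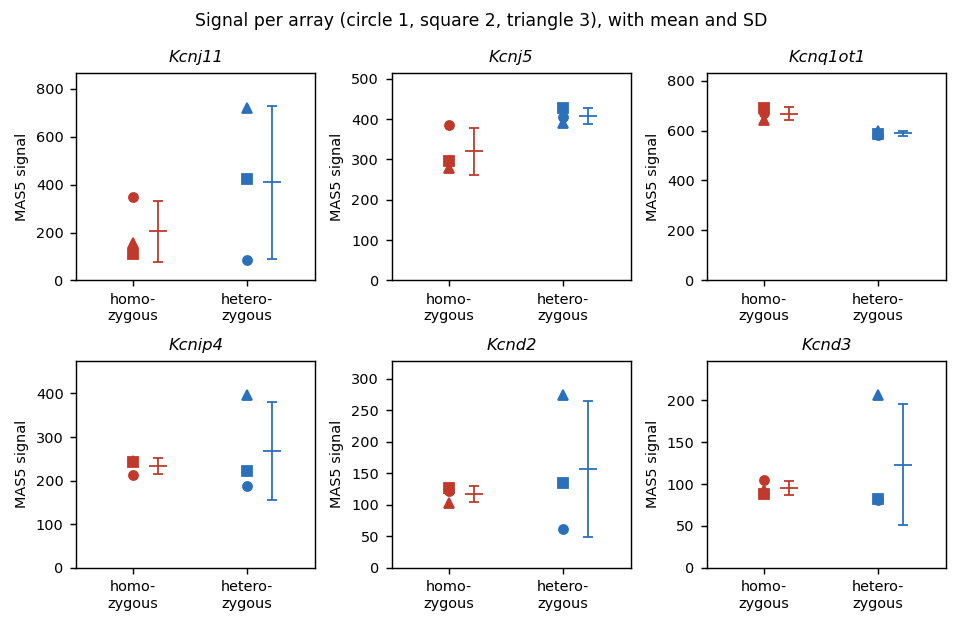
MAS5 signal on each array for 6 genes, with the mean and SD of 3 arrays at the side of each group and a separate axis from 0 for each gene. Kcnj5 and Kcnq1ot1 show groups without overlap, and heterozygous 3, the blue triangle, is the highest point for Kcnj11, Kcnip4, Kcnd2 and Kcnd3.

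Heterozygous 3 held the highest value of many dim potassium channel genes. Of the 54 genes below the filter, 18 were highest there, or 33.3%, while 19.7% of all genes below the filter were. Of the 30 past the filter, 6 were highest there, or 20%, beside 19.1% of all genes. It also held the lowest value for 9 of these 30, or 30%, beside 27.5% of all genes past the filter. Of the 54 below the filter 6 were lowest there, or 11.1%, beside 15.2% of all genes below it. Heterozygous 3 stood at least 1.5-fold above the next array, on the scale of signal plus offset, for 4 of the 84 genes, or 4.76%, and for 0.907% of all genes. The 4 were Kcnd2, Kcnd3, Kcnj11 and Kcnip4. The A-type subunit gene Kcnd2 read 102.3 to 126.0 in homozygous arrays and 61.1, 133.8 and 273.8 in heterozygous arrays. Kcnd3 read 88.1 to 105.2 in homozygous arrays and 80.7, 82.0 and 206.5 in heterozygous arrays. At its next brightest probe set, 1426070_a_at, homozygous 3 was the highest, at 106.4 against 82.8 in heterozygous 3. The genes named from here to the end of the paragraph were picked after their values were seen. Kcnip4, which differed by -0.12 with all arrays and by 0.17 without heterozygous 3, was highest there at all 3 of its probe sets, Kcnma1 at all 5 and Kcnip2, also a partner of A-type channels, at all 3. Other genes of the A-type channels were not highest there at the probe set that stands for them. Kcnd1 read 98.4 in heterozygous 3 and 131.0 in homozygous 1, Kcnip1 74.3 and 99.2, and Kcnip3 was highest in homozygous 2, at 180.4 against 146.7. At 1446556_at of Kcnd1 and 1418544_at of Kcnip3, both dimmer, heterozygous 3 was highest, at 75.8 and 150.6. Kcnq3, a subunit of the neuronal M-current, read 228.8 there and 42.8 to 161.1 elsewhere. This is the array in which the brain and bulb neuron list lay 0.57 higher and the neuronal gene Rbfox3 read 791.1 against 49.5 to 184.2 elsewhere, and the part of other neurons in these values was not tested. Fewer cells of a type and less RNA per cell cannot be told apart in such tissue samples.

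**Figure D5:**
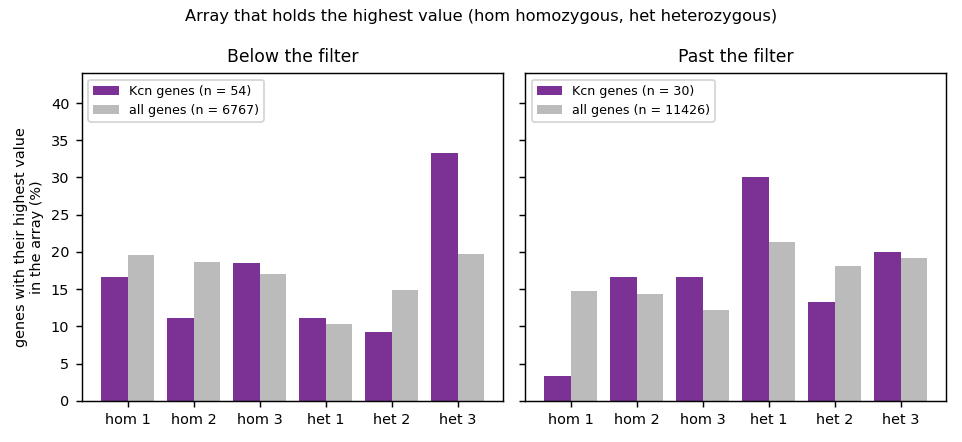
Percent of Kcn genes (purple) and of all genes (grey) whose highest value lies in each array, for genes below the filter at left and past it at right. Below the filter heterozygous 3 holds 33.3% of the Kcn genes and 19.7% of all genes.

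The library labelled heterozygous 1 was the highest array for 9 of the 30 genes past the filter, or 30%, beside 21.4% of all genes. The genes in the rest of this paragraph were picked after their values were seen. Kcna1 had its highest value there at each of its 3 probe sets past the filter, at 540.0, 404.3 and 339.6. Kcnab2 and Kcna6 did so at both of theirs, with 1405 and 998.8 for Kcnab2 and 261.4 and 233.9 for Kcna6. These subunits are known from myelinated axons, and so is Kcna2, which did not share this order. At its 3 probe sets past the filter Kcna2 read 1164 in this library against 1224 in heterozygous 3, and had its lowest value here at the others, 671.1 and 350.5. This is the array in which the myelin gene Mbp read 7269 against 655.2 to 1038 elsewhere. The part of nerve tissue in the potassium channel values was not tested. Without this library Kcnab2 differed by 0.05 in place of -0.10 between the groups, Kcna1 by 0.14 in place of 0.04 and Kcna6 by -0.05 in place of -0.09.

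Genes that work with potassium channels, or move potassium, without such a symbol were compared in the same way. Of 45 listed genes 38 were named on the array and 23 passed the filter. None passed an adjusted p of 0.05 in limma, 0 had an unadjusted p under 0.05, and 14 lay above and 9 below 0 with a median of 0.04. Atp1b1, the beta subunit of the sodium pump, was the brightest, at 15426 to 17048 in homozygous and 15067 to 17101 in heterozygous arrays. Its relative Atp1b3 had the lowest p, with 3635 ± 95.3 against 3278 ± 332.9 (SD, n = 3 each) and a difference of 0.15, or 0.08 without heterozygous 3. Ank3, which anchors channels at the axon initial segment, read 7427 in heterozygous 3 and 4804 to 5596 elsewhere. The pump regulator gene Fxyd3 read 1976 to 2700 in homozygous and 1744 to 2927 in heterozygous arrays. The pacemaker channel gene Hcn2 differed by 0.23 ± 0.13 (SE), and by 0.08 without heterozygous 3. The cotransporter gene Slc12a4 differed by 0.24 ± 0.14 and the synaptic adhesion gene Adam22 by 0.14 ± 0.09. Slc12a4 differed by 0.14 without heterozygous 2, and Adam22 by 0.07 without the library labelled heterozygous 1.

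The groups differ at the Omp locus on chromosome 7, and 9 of the 84 genes lie on that chromosome in the RefSeq table. Gene order was read from assembly GRCm38.p6. The nearest was Kcne3, with 28 protein-coding genes between it and Omp, or 71 genes of any kind. Its difference was -0.10 ± 0.16 (SE), with a limma adjusted p of 0.977 and overlapping groups. It was 0.0076 without homozygous 1 and -0.23 without homozygous 3. The neighbours Kcna5, Kcna1 and Kcna6 follow each other on chromosome 6 with no other protein-coding gene between them. Their differences were -0.03, 0.04 and -0.09.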

How the data were processed

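The authors deposited an intensity per probe set on a linear scale. It is a MAS5 signal, per the submitters' processing notes. Its version and settings are not stated in the labels used here. On every array the mean trimmed by 2% was 500.0, so no further scaling was done, and detection calls were not used. Of 45101 probe sets, 34958 name 1 gene, 932 name several and 9211 none. The annotation and the titles gave genes and groups. An offset of 38.8, the 25th percentile of pooled values, was added before log2, so fold changes of dim genes are understated. Genes with a mean log2 value at or above 7.60, the median of all probe sets, were tested with limma 3.58.1 in R 4.3.3 (lmFit, eBayes with an intensity trend, 4 residual and 6.96 prior degrees of freedom) and adjusted by Benjamini-Hochberg over 11426 genes at 0.05. The fit was tested on simulated data.

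The genes, lists and tests were chosen with earlier results of these data known. Named were the 20 brightest genes, the brightest of each class, the 8 of lowest p in each direction, genes with disagreeing probe sets or wide groups, those at the filter's edge or within 30 annotated genes of Omp (none) and, among partners, the 4 brightest and the 4 of lowest p. Genes named beyond this rule were chosen after their values were seen. Alternatives were other offsets, scalings, filters, variance models and probe set rules, a replicate block, a threshold of 0.1 and arrays left out. Protein features, which had been planned, were not analysed here.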

Additional observations from a re-analysis of the deposited data

How the results depend on the processing

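Under the 21 alternatives run, 0 potassium channel genes and 0 partner genes passed the adjusted threshold. Of all genes, 1 passed without the library labelled heterozygous 1 and 8 without that library and heterozygous 3. Counts at an unadjusted p under 0.05, 0 higher and 1 lower in homozygous arrays as reported, did change. With no filter 930 of 18193 genes had such a p, in either direction. Of the 84 potassium channel genes then tested, 2 were higher and 3 lower and the median difference was -0.0796. With the filter at the 75th percentile 14 were tested, 0 were lower and the median was -0.0575. Of all 6906 genes then tested, 334 had such a p. The count higher was 1 with no intensity trend, 1 with array weights and 2 over every probe set. In either direction, 613 of 11426 genes, 779 of 11426 genes and 1291 of 22514 probe sets were called in these settings. With a plain pooled-variance test 1 was higher and 0 were lower, beside 563 of 11426 genes in either direction. With the mean of all probe sets 0 were lower too, beside 530 of 10217 genes in either direction. With single arrays left out 0 to 2 were higher and 0 to 4 lower. Over all genes and in either direction, 874 of 11433 were called without heterozygous 3 and 834 of 11407 without the library labelled heterozygous 1. With all arrays 590 of 11426 were. The count of potassium channel genes lower was 0 without homozygous 2, homozygous 3 or heterozygous 2. Of all genes, 358 of 11431, 529 of 11437 and 585 of 11410 were called there in either direction. The count of potassium channel genes lower was 4 when heterozygous 3 was left out and 2 when the library labelled heterozygous 1 was. Without the libraries labelled heterozygous 1 and 3 together, heterozygous arrays are 1, assumed to vary like the others. Counts at an unadjusted p are therefore not given for that setting. Partner genes numbered 38 with no filter and 12 with the strict one. Of them 1 was higher after quantile normalization, where 581 of all 11424 genes were called in either direction. With single arrays left out 0 to 3 partner genes were higher and 0 to 1 lower, and their median lay between 0.0148 and 0.115. It was -0.0058 with arrays shifted to a common median.

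Signs of single genes turned in a few settings. Kcna2 differed by 0.0237 with the mean of all probe sets. Without both libraries Kcna2 differed by 0.0427, Kcnn4 by -0.111, Kcne4 by -0.101 and Kcns3 by -0.117. With single arrays left out Kcnh3 ranged from -0.211 to 0.0086, Kcne4 from -0.0295 to 0.305 and Kcns3 from -0.0023 to 0.382. The causes were not tested. The share of genes past the filter that were highest in heterozygous 3 was 20% with quantile normalization too. Deviations of arrays with the same replicate number correlated at 0.0106, -0.107 and -0.0871, so no pairing by number was seen. With 3 arrays in each group, these values cannot exclude such a pairing. With the replicate block the counts of potassium channel genes were 0 higher and 1 lower, and 500 of all genes had an unadjusted p under 0.05 in place of 590. Precision is limited by the number of arrays, and dim genes by signal near the offset.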
